A study of Mus musculus with 4 samples.

Results

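Complement components and their receptors were followed as 9 genes, chosen by symbol from the 22620 genes of the deposited tables: C1qa, C1qb, C1qc, C3, C4b, Cfb, Cfp, C3ar1 and C5ar1. All 9 were found, and all 9 passed the filter on low counts in macrophage-gated cells. The cells came from MC38 tumours, grown from a mouse colon carcinoma line, in wild-type (WT) mice or in mice with both copies of Park2 deleted (Park2-/-, labelled KO). Each genotype had 2 libraries of cells enriched with CD45 beads, and CD45, encoded by Ptprc, is carried by nearly all white blood cells. The labels give no age, sex or strain, do not say which cells lack Park2 beyond naming the mice, and do not say whether a library came from 1 animal or from a pool. P-values therefore measure the spread between libraries, which may be technical.

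Complement is a cascade of proteins that tags particles and cells for uptake and draws in white blood cells. The C1q chains, encoded by C1qa, C1qb and C1qc, assemble into the recognition unit of the classical pathway, which acts through C4 and C2 to cleave C3. Factor B, encoded by Cfb, forms the C3-cleaving enzyme of the alternative pathway, and properdin, encoded by Cfp, stabilises that enzyme. The fragments C3a and C5a act on the receptors encoded by C3ar1 and C5ar1. Most plasma complement is made in the liver, but C1q and properdin are made largely by myeloid cells, and macrophages in tumours are a known source of C1q.

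All 9 genes lie on the minus strand of the mouse genome (GRCm38, mm10). The C1q trio occupies 1 cluster on chromosome 4, and C4b and Cfb lie near each other on chromosome 17. C1qb lies at chr4:136880129-136886187, C1qc at chr4:136889804-136893065 and C1qa at chr4:136895917-136898803. C3 lies at chr17:57203970-57228136, Cfb at chr17:34856374-34862518 and C4b at chr17:34728380-34743882. Cfp lies at chrX:20925454-20931555, C3ar1 at chr6:122847138-122856161 and C5ar1 at chr7:16246743-16259540. All 9 are annotated as protein-coding. Cfb overlaps the same-strand gene Gm20547, which had 0 UMIs in macrophage-gated cells of every library, so no reads were counted to it there. Reads that fit both genes may still have been lost. C4b has a near-identical copy, C4a, that was not analysed here, so C4b reads may have been split or lost. The values of Cfb and C4b are uncertain to that extent.

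RefSeq (GRCm38.p6) promoter windows matched 6 of the 9 genes: C1qb, C1qc, C3, Cfp, C3ar1 and C5ar1. The 250 bases before the start are shown for C1qb and C1qc, since the C1q genes had like levels across libraries, and for C3, whose level differed most between genotypes in macrophage-gated cells. Each reads 5′ to 3′ on the gene's strand (minus), with matches to any of 6 searched motifs in capitals.
C1qb (chr4:136886201-136886450): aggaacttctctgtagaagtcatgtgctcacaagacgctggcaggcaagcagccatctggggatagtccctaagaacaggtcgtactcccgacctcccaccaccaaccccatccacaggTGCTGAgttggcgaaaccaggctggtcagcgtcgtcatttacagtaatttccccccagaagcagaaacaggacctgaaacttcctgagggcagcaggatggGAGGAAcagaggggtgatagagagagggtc
C1qc (chr4:136892915-136893164): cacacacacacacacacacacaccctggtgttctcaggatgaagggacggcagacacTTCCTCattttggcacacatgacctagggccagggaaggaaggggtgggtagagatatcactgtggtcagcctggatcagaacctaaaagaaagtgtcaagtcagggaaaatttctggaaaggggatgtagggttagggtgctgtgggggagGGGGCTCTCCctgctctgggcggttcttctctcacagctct
C3 (chr17:57228137-57228386): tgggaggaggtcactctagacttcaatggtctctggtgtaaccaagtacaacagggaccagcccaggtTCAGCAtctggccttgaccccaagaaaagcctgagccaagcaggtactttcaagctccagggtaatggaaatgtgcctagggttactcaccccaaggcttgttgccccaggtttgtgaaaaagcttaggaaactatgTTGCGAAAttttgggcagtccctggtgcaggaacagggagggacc

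The motifs, searched on both strands, were a GAS site (TTCNNNGAA), an ISRE core (GAAANNGAA) and a PU.1 core (GAGGAA). The others were a C/EBP site (TTGCNNAA), part of a MAF site (TGCTGA), called a MAF site here for short, and the NF-kappaB consensus. No 2 matches overlapped in the windows shown. C1qb held a MAF site at -131 and a PU.1 core at -30 from the start. C1qc held a PU.1 core at -193 and an NF-kappaB match at -41. C3 held a MAF site at -182 and a C/EBP site at -45. C3ar1 and C5ar1 each held a MAF site, C5ar1 also an ISRE core, and Cfp held none of the 6 motifs. Among 32851 windows of the same length, 23.3% held a PU.1 core, 16.1% a MAF site, 9.56% a C/EBP site, 7.25% an NF-kappaB match, 7.13% an ISRE core and 7.02% a GAS site. These matches describe letters in the windows and are not shown to be sites of binding.

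The libraries held 94213071 (WT 1), 112472244 (WT 2), 130466357 (KO 1) and 104900918 (KO 2) UMIs, each UMI standing for 1 captured RNA molecule. After filters, 8664 and 8815 WT cells and 17207 and 9498 KO cells were kept, with median UMIs per cell between 6052 (KO 1) and 12133 (WT 2). KO 1 thus had the most cells and the lowest depth per cell. Among kept cells, 198 barcode sequences occurred in more than 1 library.

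Cells were assigned by counting marker genes, none of them a complement gene. A macrophage-gated cell had UMIs of at least 4 of 7 macrophage markers, among them Csf1r, Adgre1, Fcgr1, Mertk, Cd68 and Ms4a7, and fewer than 3 of 6 monocyte markers. There were 4358 and 5116 such cells in WT and 7380 and 4135 in KO. The summed level of the 7 macrophage markers in them ran from 2481 to 2604 per 1000000 UMIs in WT and from 2897 to 3327 in KO. The liver markers Alb and Ttr had no UMI in these cells. Levels below are in CPM, the UMIs of a gene per 1000000 UMIs of the summed cells of a class in 1 library.

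In macrophage-gated cells, Cfb, Cfp and C1qc rose in KO and none of the 9 genes fell. C3 had the widest gap between genotypes, with a KO mean 5.18 times the WT mean, but missed the threshold. The receptor genes C3ar1 and C5ar1 had overlapping levels. Of the 9 genes, 3 had an adjusted p under 0.05 (edgeR quasi-likelihood test, Benjamini-Hochberg over all genes), against 9.44% of the 12395 genes tested, of which 709 were higher and 461 lower. Scaling by total counts moved the median of all genes from -0.01 to -0.14 on the log2 scale and turned that split into 509 higher and 1010 lower, and 3 complement genes passed there too, C3, Cfb and Cfp. With 2 libraries per genotype, an exact two-sided permutation test of a single gene cannot give a p below 0.333.

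The C1q chains were the most alike of the genes. C1qa stood at 2556 and 3258 CPM in WT and 3950 and 3635 in KO. C1qb stood at 2583 and 3210 in WT and 4009 and 3601 in KO. Both KO libraries lay above both WT libraries for each chain. C1qc, the third chain, stood at 1705 and 2070 in WT and at 2711 and 2422 in KO. The log2 difference of KO minus WT was 0.57 ± 0.14 (SE, adjusted p = 0.043, edgeR) for C1qc. It was 0.51 ± 0.15 (adjusted p = 0.0767) for C1qa and 0.52 ± 0.15 (adjusted p = 0.0652) for C1qb, which missed the threshold; whether the chains differ from each other in their change was not tested. The C1qc call was lost without WT 1 (adjusted p = 0.159) and without KO 1 (adjusted p = 0.0755), and also under total counts (adjusted p = 0.0573) and with the replicate number as a block (adjusted p = 0.0858, edgeR). In all it passed in 12 of 22 alternatives, with log2 differences from 0.39 to 1.23.

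**Figure D1:**
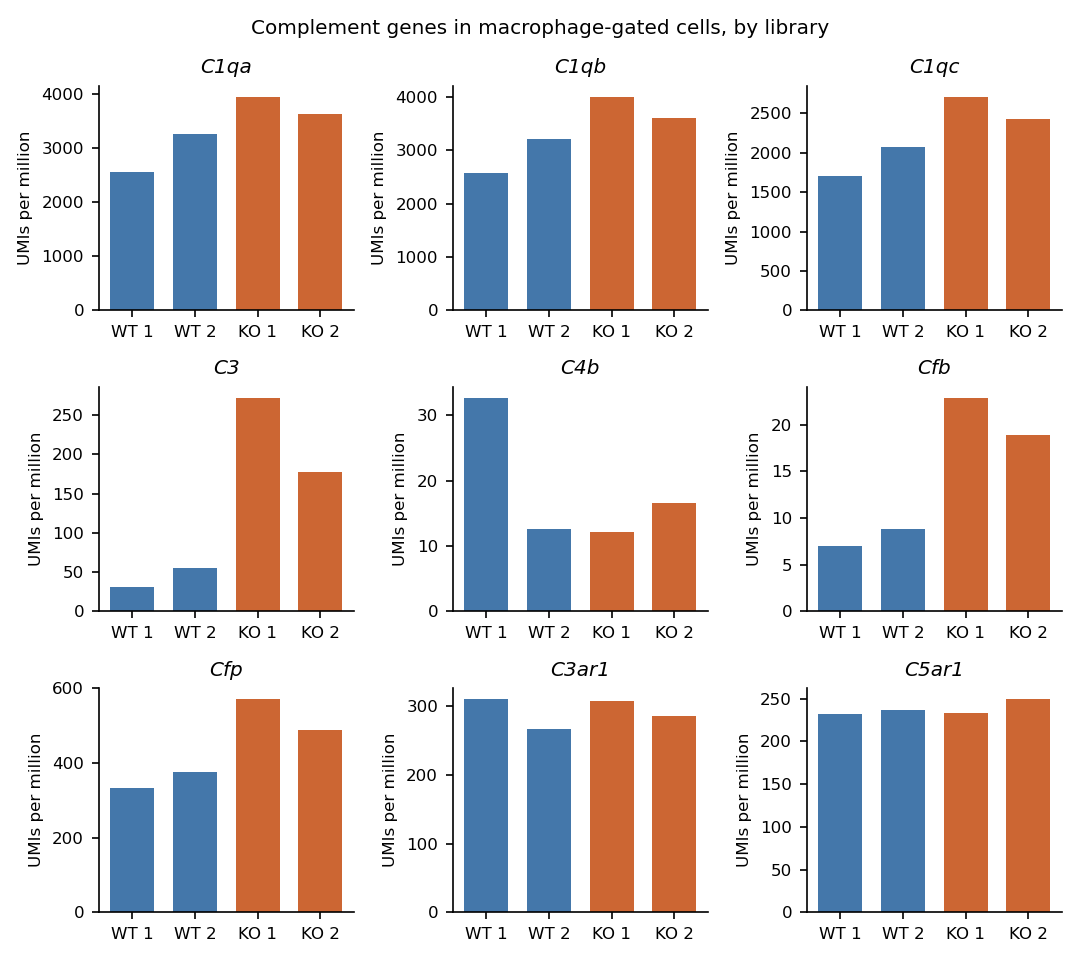
Bars give the level of each complement gene in macrophage-gated cells, in UMIs per 1000000 UMIs of those cells (CPM), 1 bar per library (blue WT, orange KO). C3 is at 31.4 and 55.4 in WT and at 272 and 177 in KO, the ranges of C3ar1 and C5ar1 overlap, and C4b is highest in WT 1.

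C3, the protein on which all complement pathways converge, was counted at 31.4 and 55.4 CPM in WT and at 272 and 177 in KO. The groups did not overlap, and the libraries of each genotype were also far apart. The log2 difference was 2.49 ± 0.42 (SE, adjusted p = 0.0554, edgeR), which misses the threshold. Over 22 alternative analyses of macrophage-gated cells it lay between 2.12 and 3.0 and passed in 7, among them DESeq2 (adjusted p = 4.55e-05) and total-count scaling (adjusted p = 0.0406, edgeR). C4b, the classical pathway partner that is cleaved before C3, stood at 32.7 and 12.7 in WT and 12.1 and 16.6 in KO. WT 1 alone was high, and the log2 difference was -0.52 ± 0.57 (adjusted p = 0.644), turning to 0.28 without WT 1 (adjusted p = 0.523) and passing at -1.02 without WT 2 (adjusted p = 0.0461, edgeR).

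The alternative pathway genes rose. Cfb stood at 7.04 and 8.85 CPM in WT and at 22.9 and 18.9 in KO, a difference of 1.51 ± 0.16 on the log2 scale (adjusted p = 0.00387, edgeR). It was higher in both KO libraries and was called in all 22 alternatives run, with log2 differences from 1.15 to 2.00. Cfp stood at 332 and 377 in WT and at 573 and 489 in KO, a difference of 0.71 ± 0.12 (adjusted p = 0.0146, edgeR). That call passed in 20 of the 22 alternatives and missed without WT 1 (adjusted p = 0.0666) and with the replicate number as a block (adjusted p = 0.057, edgeR).

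The receptor genes overlapped between genotypes. C3ar1 was counted at 311 and 267 CPM in WT and at 308 and 286 in KO, with a log2 difference of 0.17 ± 0.10 (adjusted p = 0.33, edgeR). C5ar1 was counted at 232 and 237 in WT and at 233 and 250 in KO, with a difference of 0.17 ± 0.09 (adjusted p = 0.3, edgeR). Neither passed in the macrophage-gated class as a whole, which does not show that the levels were equal.

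Other markers moved with these values. In macrophage-gated cells 6 of 7 T cell genes were called higher in KO and none lower, against 9.44% of all genes. Their median log2 difference was 2.97. Cd8a, Cd8b1 and Trac had 2, 3 and 6 UMIs in WT 1, under the filter's minimum. They passed the filter through KO, where they were higher, so nothing is read from that count or median. The summed level of the 5 T cell gate markers stayed low, from 1.2 to 3.1 CPM in WT and 12.9 to 16.4 in KO, against 3907 or more in T-gated cells. Of 5 NK cell genes 2 were called higher, Klra8 and Klre1, against the same share of all genes. Klra8 had 1 and 3 UMIs in WT and Klre1 had 8 in WT 1, under the filter's minimum. Each passed the filter through KO, where it was higher, so nothing is read from this count. Of 4 fibroblast and 3 endothelial genes none passed. An unadjusted p under 0.05 was seen for 2 and 1 of them, against 3340 of all 12395 genes (edgeR). These were Col3a1 (log2 difference -0.57) and Dcn (-0.71), lower in KO, and Kdr (0.81), higher. Of 6 neutrophil genes, S100a8 was called higher and none lower, and 4 had an unadjusted p under 0.05, against the same 3340 of 12395 genes (edgeR). Of these 4, Cxcr2 (log2 difference -1.72) and Retnlg (-1.86) were lower in KO, and the median over the 6 genes was 0.13. The summed level of the 6 genes was 35.4 to 39.3 in WT and 49.5 to 71.5 in KO. Cxcr2 in KO 1 and Retnlg in both KO libraries lay under the filter's minimum, so they passed it through WT, where they were higher. The monocyte markers summed to 730 to 1205 in WT and 554 to 624 in KO. The part of these shifts in the complement differences was not tested.

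Across cell classes, the C1q genes and C3ar1 were highest in macrophage-gated cells of both genotypes, and lower in turn in monocyte-macrophage-gated cells, which carry both marker sets, and in monocyte-gated cells. For C1qa the WT means in that order were 2907, 1850 and 406 CPM, with no overlap between neighbours. C3ar1 followed the same order in WT, at 289, 234 and 134, again without overlap. C3 and C5ar1 had their highest level in neutrophil-gated cells instead. C5ar1, the receptor through which C5a draws in neutrophils, stood there at 440 and 357 in WT and at 544 and 396 in KO. C3 stood there at 162 and 137 in WT and at 328 and 373 in KO, above the macrophage-gated level of each library.

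**Figure D2:**
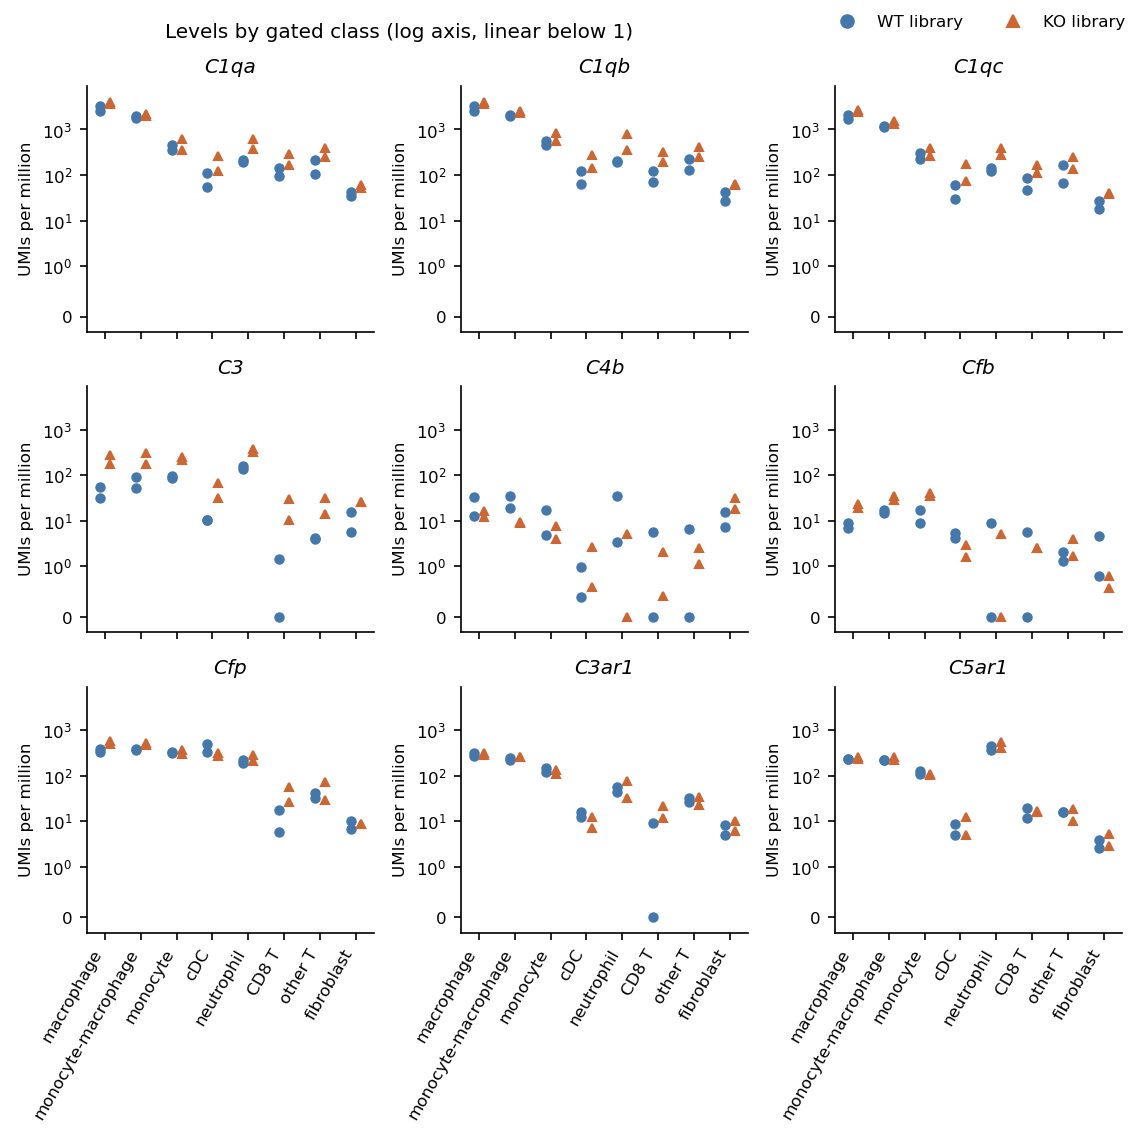
Each panel gives 1 gene's level per library (blue circles WT, orange triangles KO) in 8 gated classes, in CPM on an axis that is logarithmic above 1 and linear below. The C1q genes and C3ar1 are highest in macrophage-gated cells of both genotypes, and C3 and C5ar1 in neutrophil-gated cells.

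Cfp was spread over the myeloid classes. Conventional dendritic cell-gated (cDC) libraries had Cfp at 488 and 321 CPM for WT and at 318 and 267 for KO, which overlapped the monocyte-macrophage and macrophage ranges in WT. T-gated cells held between 5.84 and 73.5. Cfb was highest in monocyte-gated and monocyte-macrophage-gated cells, whose ranges overlapped in both genotypes, at means of 13.1 and 16.3 in WT and 38.1 and 31.8 in KO. C4b had no clear order among WT classes, where every neighbour in the order overlapped with the next.

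Most UMIs of each gene lay in macrophage-gated cells in every library. They held 81.0% to 88.5% of all C1qa UMIs, 57.7% to 70.4% of C3 UMIs and 57.7% to 70.7% of Cfb UMIs. Neutrophil-gated cells, with 69 to 327 cells and median depths of 1480 to 1798 UMIs, held 0.292% to 1.58% of C3 UMIs. The 7 macrophage markers summed to 642 to 788 CPM in neutrophil-gated cells, and C1qa was counted there at 194 to 631. The ratio of C3 to C1qa was 0.52 to 1.02 in neutrophil-gated cells and 0.012 to 0.069 in macrophage-gated cells of the same libraries. In monocyte-gated cells it was 0.21 to 0.63, a range that overlaps that of neutrophil-gated cells, though lower within each library. The neutrophil-gated C3 levels rest on 48 (WT 1), 31 (WT 2), 191 (KO 1) and 47 (KO 2) UMIs. How much of that C3 came from other cells was not tested.

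In monocyte-macrophage-gated cells (596 to 1830 cells per library), 4 of 9 complement genes passed, against 14.3% of all genes tested. Cfb rose by 1.08 ± 0.15, Cfp by 0.52 ± 0.10 and C1qc by 0.40 ± 0.12 on the log2 scale (adjusted p = 0.000623, 0.00547 and 0.0356, edgeR). C4b fell, from 35.6 and 19.1 CPM in WT to 8.93 and 9.32 in KO, a log2 difference of -1.49 ± 0.28 (adjusted p = 0.0221, edgeR). The genotypes did not overlap for C4b there, whereas they did in macrophage-gated cells. The C4b call was lost without KO 1 (adjusted p = 0.192) and without KO 2 (adjusted p = 0.129, edgeR). C1qc was lost under total counts (adjusted p = 0.0774) and without WT 1 (adjusted p = 0.206), KO 1 (adjusted p = 0.304) or KO 2 (adjusted p = 0.0559), and Cfp without KO 1 (adjusted p = 0.0634, edgeR).

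In monocyte-gated cells (157 to 573 cells per library), C3 and Cfb rose, 2 of 9 genes against 8.15% of all tested. C3 went from 88.8 and 96.2 CPM in WT to 258 and 221 in KO, a log2 difference of 1.42 ± 0.14 (adjusted p = 7.35e-07, edgeR). It stayed past the threshold with any library left out, at 1.3 to 1.53. Cfb went from 17.2 and 9.04 to 35.3 and 40.8, a difference of 1.49 ± 0.26 (adjusted p = 0.000695, edgeR). Cfp gave overlapping values in these cells, 315 and 328 in WT against 367 and 294 in KO.

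The difference between classes was tested directly, as the KO change of another class minus that of macrophage-gated cells. The KO change of C3 was smaller in monocyte-gated cells by 1.12 ± 0.22 on the log2 scale (adjusted p = 0.0262, edgeR), and that of Cfp by 0.61 ± 0.11 (adjusted p = 0.000155, edgeR). The C3 difference was lost under total counts (adjusted p = 0.0782, edgeR). This made 2 of 9 genes, against 3.21% of all genes tested. Against monocyte-macrophage-gated cells, C3 differed by -0.66 ± 0.08 and C4b by -0.94 ± 0.18 (adjusted p = 0.00408 and 0.0281, edgeR), 2 of 9 genes against 1.53% overall. Of these, C3 was lost without WT 1 (adjusted p = 0.418) and C4b without KO 2 (adjusted p = 0.145, edgeR). Against cDC-gated cells none of the 9 passed (0.275% of all genes), and 2 had an unadjusted p under 0.05, Cfb and Cfp (805 of 12712 genes, edgeR). Cfb had 11 and 11 UMIs in WT and 5 and 3 in KO cDC-gated cells. The filter left it out when that class was fitted alone, so nothing is read from its difference. Against neutrophil-gated cells none passed (0.110% of all genes), and C1qb and C3 had an unadjusted p under 0.05 (433 of 11866 genes, edgeR).

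The remaining classes gave few calls. In cDC-gated cells none of the 7 complement genes tested passed in edgeR (0.118% of all genes), and C3 alone had an unadjusted p under 0.05 (615 of 9344 genes). C3 was at 10.5 CPM in both WT libraries and at 67.6 and 32.0 in KO. In neutrophil-gated cells none of 7 passed in edgeR (0.123% of all genes), and the C1q chains and C3 had an unadjusted p under 0.05 (291 of 3240 genes). The C3 difference there was 1.19 ± 0.28 on the log2 scale (adjusted p = 0.131, edgeR). In CD8 T-gated cells none of 7 passed in edgeR (0.414% of all genes). The C1q chains, C3 and Cfp had an unadjusted p under 0.05 there (867 of 8454 genes). Cfp had 1 UMI in WT 1 of that class, under the filter's minimum, so it passed through KO, where it was higher. In the other T-gated cells 1 of 7 genes, C3, had an adjusted p under 0.05 (1.11% of all genes), on 3 and 4 UMIs in WT and 54 and 17 in KO. Its WT levels lay under the filter on low counts, in these cells and in CD8 T-gated ones, so it was tested only through KO, where it was high, and nothing is read from this. The call was lost as well without KO 1 (adjusted p = 0.659, edgeR) and with DESeq2 (adjusted p = 0.319). C3 in those T-gated cells was at 7.5% to 12.8% of the level in macrophage-gated cells of the same library, and the 7 macrophage markers summed there to 138 to 216 CPM in WT and 177 to 360 in KO.

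Fibroblast-gated cells, chosen by collagen genes and Dcn, carried Ptprc at only 6.8 to 18.6 CPM, against 371 to 432 in macrophage-gated cells. In them C1qb and C1qc passed, 2 of 8 genes tested (3.92% of all genes), at levels of 18.1 to 63.8 CPM. C1qb there was at 1.07% to 1.71% of the level in macrophage-gated cells of the same library, and the 7 macrophage markers summed to 41.3 to 44.1 CPM in WT and 49.1 to 66.7 in KO. These calls were lost without KO 1 (adjusted p = 0.326 and 0.293) and without KO 2 (adjusted p = 0.233 and 0.268), and C1qc also without WT 1 (adjusted p = 0.111, edgeR). Over all kept cells of a library, whatever their class, C3 (log2 difference 2.38 ± 0.34, adjusted p = 0.0295), Cfb (1.5 ± 0.14, adjusted p = 0.0108) and Cfp (0.63 ± 0.12, adjusted p = 0.0399) rose, 3 of 9 against 5.81% of all genes (edgeR). None of these 3 calls held without WT 1 (adjusted p = 0.1, 0.0776 and 0.219, edgeR). C3 was also lost without KO 1 (adjusted p = 0.278) and without KO 2 (adjusted p = 0.106), and Cfp without WT 2 (adjusted p = 0.104) and without KO 1 (adjusted p = 0.0577, edgeR).

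Macrophage-gated cells were then divided by genes that mark states within them, a cell counting as positive with at least 2 UMIs of the named gene or pair. Fcrls and Cx3cr1, the latter encoding the fractalkine receptor, marked 58.5% and 59.3% of macrophage-gated cells in WT and 16.3% and 21.8% in KO. With every cell thinned to 3000 UMIs, the shares were 32.6% and 27.8% in WT and 6.18% and 5.43% in KO, so the genotypes did not overlap at 1 depth either. In every library C1qa was higher in the positive cells, at 3311 and 4177 CPM in WT and 5787 and 5337 in KO. In the negative cells it stood at 1301 and 1696 in WT and 3512 and 3026 in KO. C1qa was higher in KO within each part, the part richer in it held a smaller share of KO cells, and the pooled cells differed by less than either part.

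All C1q chains were called in each part. In Fcrls or Cx3cr1 negative cells the log2 differences were 1.17 ± 0.16 for C1qa, 1.09 ± 0.15 for C1qb and 1.23 ± 0.14 for C1qc (adjusted p = 0.00755, 0.00647 and 0.00378, edgeR). Here 6 of 9 genes passed, all higher, against 7.77% of all genes, and Cfb, Cfp and C5ar1 (0.39 ± 0.09, adjusted p = 0.0442) were the others. In positive cells 5 of 9 passed (5.87% of all genes), with C1qa at 0.66 ± 0.14, C1qb at 0.58 ± 0.14 and C1qc at 0.68 ± 0.13 (adjusted p = 0.0318, 0.0431 and 0.0227, edgeR). The calls of the chains in negative cells held with each library left out, C1qa between 0.97 and 1.39. C5ar1 was lost with any library left out (adjusted p = 0.0762 to 0.173) and Cfp without WT 1 (adjusted p = 0.0816, edgeR). In positive cells none of the 5 passed without WT 1 (adjusted p = 0.0528 to 0.117), and C1qa and C1qb were also lost without KO 1 (adjusted p = 0.0534 and 0.122, edgeR).

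The KO change of the C1q chains differed between the parts. It was smaller in positive cells by 0.48 ± 0.05 for C1qa, 0.48 ± 0.05 for C1qb and 0.53 ± 0.05 for C1qc on the log2 scale, and by 0.87 ± 0.12 for Cfb (adjusted p at most 0.000197, edgeR), 4 of 9 genes against 3.81% of all genes. Each of these 4 held with any library left out. When the parts were cut on thinned cells, C1qa in negative cells stood at 1853 and 2589 in WT and 3818 and 3516 in KO, a narrower gap. In positive cells of that cut it stood at 4056 and 5053 in WT and 6179 and 5818 in KO. The difference between the parts was not tested on that cut, so its size may depend on the depth at which cells were cut. A cut on UMIs is a range and not a cell type, and KO 1 had the lowest median depth in macrophage-gated cells, 9970 UMIs against 12447 to 14735 in the others.

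**Figure D3:**
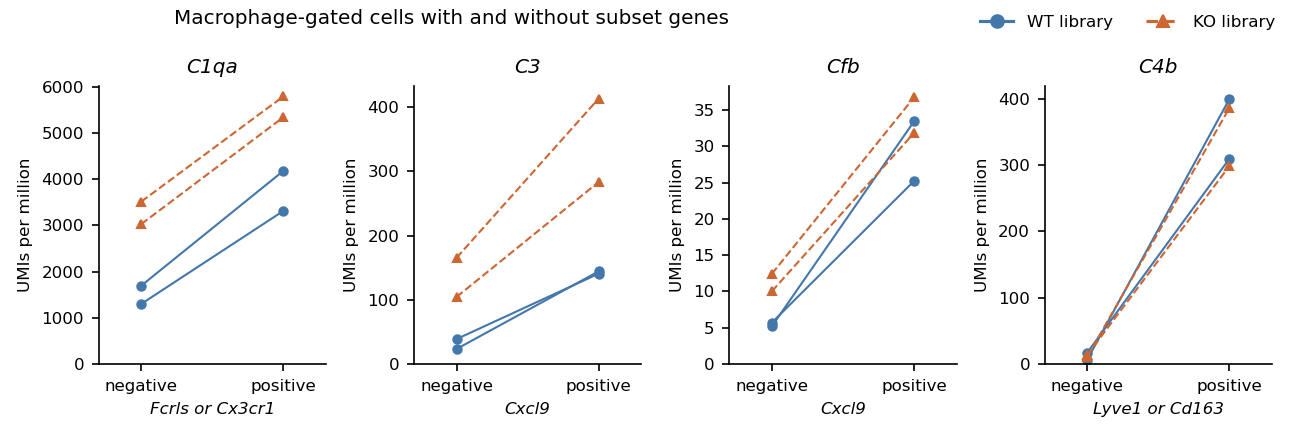
Lines join the level of a gene in macrophage-gated cells negative and positive for the gene or pair under each panel, 1 line per library (blue circles WT, orange triangles KO), in CPM. C1qa in Fcrls or Cx3cr1 negative cells is at 1301 and 1696 in WT and 3512 and 3026 in KO, Cfb reaches 25.2 to 36.7 in Cxcl9 positive cells of all 4 libraries, and C4b is at 298 or more in Lyve1 or Cd163 positive cells of both genotypes.

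Cxcl9, an interferon-induced chemokine gene, marked 6.01% and 14.3% of macrophage-gated cells in WT and 37.6% and 35.6% in KO (thinned, 3.91%, 8.93%, 25.5% and 21.3%). Cxcl9 positive cells held more C3 and Cfb in every library. C3 in them was at 144 and 141 CPM in WT and 414 and 284 in KO, and in negative cells at 23.6 and 39.0 in WT and 166 and 105 in KO. The C3 change passed in positive cells (1.45 ± 0.17, adjusted p = 0.00185, edgeR) but not in negative ones (2.22 ± 0.41, adjusted p = 0.0736), and the difference between these changes was not past the threshold (adjusted p = 0.568, edgeR). The call in positive cells was lost without WT 1 (adjusted p = 0.0797) and without WT 2 (adjusted p = 0.105, edgeR).

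Cfb did not pass in the Cxcl9 positive cells. It was counted there at 33.4 and 25.2 CPM in WT and at 36.7 and 31.8 in KO, a log2 difference of 0.43 ± 0.14 (adjusted p = 0.0866, edgeR), with overlapping libraries. In Cxcl9 negative cells it stood at 5.22 and 5.72 in WT and 12.4 and 10.0 in KO, a difference of 1.15 ± 0.15 (adjusted p = 0.00252, edgeR). The KO change of Cfb was smaller in positive cells by 0.66 ± 0.13 (adjusted p = 1.71e-05, edgeR), and this held with each library left out. C3ar1 (0.21 ± 0.06, adjusted p = 0.0126) and C5ar1 (0.28 ± 0.06, adjusted p = 0.000369) had a larger KO change in positive cells, which made 3 of 9 genes against 7.15% overall (edgeR). The C3ar1 difference was lost under total counts (adjusted p = 0.169) and without WT 2 (adjusted p = 0.342), KO 1 (adjusted p = 0.631) or KO 2 (adjusted p = 0.114), and the C5ar1 difference without WT 2 (adjusted p = 0.0563) or KO 1 (adjusted p = 0.23, edgeR). In all, 3 of 9 complement genes were called in Cxcl9 positive cells (10.6% of all genes) and 3 of 9 in negative ones (11% of all genes). C5ar1 in positive cells was lost with any library left out (adjusted p = 0.0741 to 0.154). In negative cells C1qc was lost without WT 1 (adjusted p = 0.223) or KO 1 (adjusted p = 0.178), and Cfp without WT 1 (adjusted p = 0.0604, edgeR).

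C4b went with Lyve1 and Cd163, genes of perivascular and resident macrophages. Lyve1 or Cd163 positive cells had C4b at 309 and 399 CPM for WT and at 386 and 298 for KO, against 17.3 and 6.82 in WT and 11.2 and 13.8 in KO in the negative cells. The positive cells numbered 250 and 92 in WT and 19 and 40 in KO, or 5.74%, 1.80%, 0.257% and 0.967% of macrophage-gated cells in the order WT 1, WT 2, KO 1 and KO 2. They carried 49.9% and 46.9% of the C4b UMIs of macrophage-gated cells in WT and 7.8% and 17.8% in KO. No test was run on them, since KO 1 had under 20 cells. In the negative cells the log2 difference of C4b was 0.19 ± 0.48 (adjusted p = 0.849, edgeR), where 4 of 9 genes passed (C1qc, C3, Cfb and Cfp, all higher) against 9.66% of all genes. Without WT 1 only Cfb of these 4 passed, and C3 was also lost without either KO library (adjusted p = 0.261 and 0.119, edgeR).

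The other subsets gave between 3 and 8 calls of 9, all higher in KO. In Vcam1 positive cells C3 stood at 74.8 and 73.3 CPM in WT and 511 and 391 in KO, a log2 difference of 2.78 ± 0.16 (adjusted p = 7.16e-05, edgeR), and it held with each library left out. Cfb and Cfp passed there too, 3 of 9 against 6.47% of all genes, Cfp not without KO 1 (adjusted p = 0.173, edgeR). In Mki67 or Top2a positive cells, which express genes of dividing cells, 8 of 9 passed, every gene but C4b, against 13.8% of all genes, and C1qc, Cfb and Cfp held with each library left out. Chil3 or Ear2 positive cells gave 4 calls (5.97% of all genes), Mmp12 or Mmp13 positive cells 5 (7.95%) and Arg1 or Inhba positive cells 3 (10.2%). Arg1 or Inhba positive cells made up 89.5% to 93.3% of macrophage-gated cells, so their fit nearly repeats that of the whole class. With each library left out in turn, Cfb held among the Chil3 or Ear2 calls, Cfb and Cfp among the Arg1 or Inhba calls, and the C1q chains and Cfp among the Mmp12 or Mmp13 calls. Cfp passed in all 7 subsets tested and Cfb in 6, Cxcl9 positive cells being the exception, while C4b passed in none. The subsets overlap, so these counts are not independent.

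**Figure D4:**
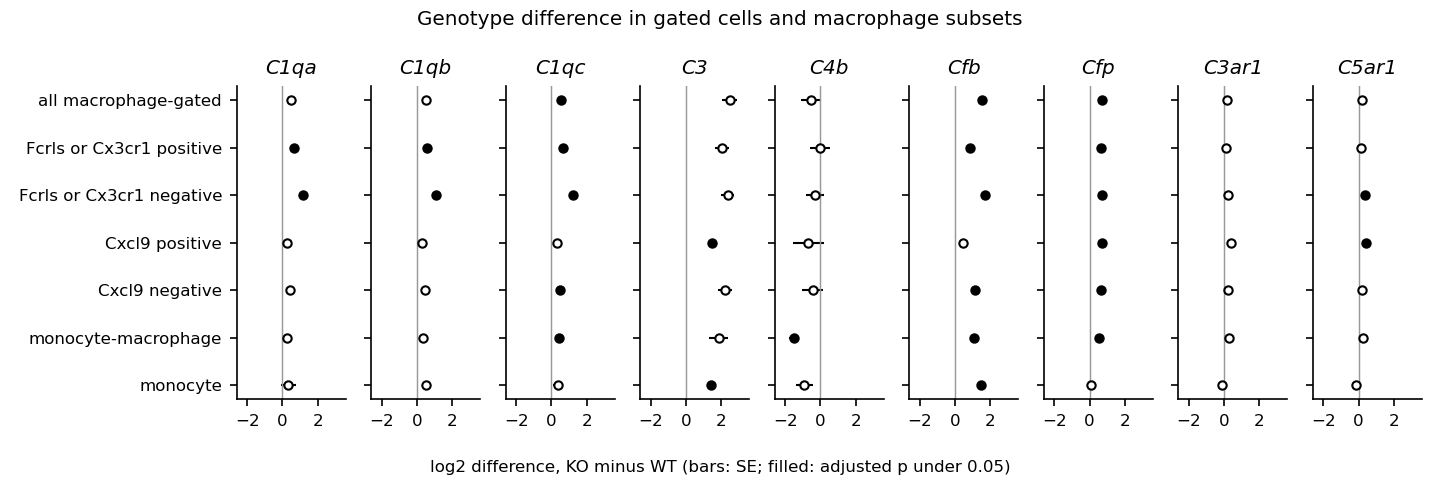
Points give the log2 difference of KO minus WT with its standard error for each gene in macrophage-gated cells, in 4 parts of them and in 2 monocyte classes; filled points have an adjusted p under 0.05. The C1q genes differ by 1.09 to 1.23 in Fcrls or Cx3cr1 negative cells, C3 has the largest difference in all rows but monocyte-gated cells, and Cfb is open only in Cxcl9 positive cells.

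The share of cells with a UMI gave a view within the class. With cells thinned to 3000 UMIs, 83.4% and 87.6% of macrophage-gated cells in WT and 88.4% and 83.4% in KO had a C1qa UMI, against 90.3%, 94.1%, 94.4% and 93.6% unthinned. For C3 the thinned shares were 6.93% and 13% in WT and 39.6% and 31.0% in KO, against 18.6%, 33.8%, 62.5% and 60.8% unthinned. The C1qa shares overlapped between genotypes and the C3 shares did not. The median thinned C1qa count per cell was 7 and 9 in WT and 10 and 9 in KO. T-gated cells gave shares of 18.5% to 53.2% for C1qa and up to 6.99% for C3 at the same 3000 UMIs. These are taken here as a background, on the assumption, not tested, that T cells lack these genes. Median depths before thinning were 2476 to 4462 UMIs in T-gated and 9970 to 14735 in macrophage-gated cells, and thinning left out shallower cells, 189 and 110 WT and 473 and 174 KO macrophage-gated cells. Each library's C3 share in macrophage-gated cells was above the share in its own T-gated cells. The Cfb share in WT 1 (2.40%) was below that of its 23 thinned CD8 T-gated cells (4.35%). Before thinning, all CD8 T-gated cells of WT 1 held 1 Cfb UMI, as did its other T-gated cells, against 394 in macrophage-gated cells. With so few UMIs this comparison cannot tell whether that Cfb share is above background. The T-gated C1qa share was also higher in KO, at 32.8% to 53.2%, than in WT, at 18.5% to 29.1%.

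Correlations over thinned macrophage-gated cells are descriptions within 1 library, where all genes share the depth. C1qa and C1qb had a Pearson r of 0.84 to 0.86 in the 4 libraries. C1qa and C3 had an r of 0.01 to 0.09. C3 and Cfb had an r of 0.10 and 0.13 in WT and 0.25 in both KO libraries. C1qa and C1qb UMIs were counted in the same cells.

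Over 32 sums of a class in a library, up to 3 genes with the profile most like that of a complement gene were named from 8007 genes, by Pearson r of log2(CPM + 1), as a description. C1qa was closest to Apoe (0.98), Pf4 (0.97) and Ccl12 (0.95). C1qb had Apoe, Pf4 and Lyz2, and C1qc had Apoe, Pf4 and Ccl12. C3 was closest to Nampt (0.94), Atf3 (0.93) and Atp6v0b (0.93), a different set. C3ar1 was closest to Trem2 (0.96), Abca1 and Slc7a8, and C5ar1 to Tmem189 (0.96), Sdcbp and Ccl6. Cfp was close to Unc93b1 (0.98) and Ly86. Cfb had Ncstn (0.87), Ms4a8a and Lrpap1, and C4b had Ptgr1 (0.86), Itgb5 and Hebp1. The sums share libraries and cell classes, so the values of r are not over independent points.

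A wider list of 46 complement genes, receptors and regulators was read from the same fit in macrophage-gated cells. C4a was not analysed here, 24 of the others passed the low-count filter, 6 were called higher and 2 lower, against 9.44% of all genes called, and the median log2 difference was 0.24, against -0.01 over all genes. C1s1 in WT 1 and Vsig4 in KO 1 lay under the filter's minimum, so each passed it through the genotype where it was higher, and the counts support nothing about the list. Nothing is read from the single tests of C1s1 and Vsig4 either, and their values are given as a description. C1ra, a protease of the C1 complex, rose by 0.94 ± 0.12 on the log2 scale (adjusted p = 0.00548, edgeR). C1s1, the other protease of that complex, gave a difference of 2.46 ± 0.48 (adjusted p = 0.0262, edgeR). C1ra went from 12.2 and 10.4 CPM in WT to 21.5 and 18.1 in KO, and C1s1 from 0.13 and 0.37 to 1.57 and 1.02. C2, the classical pathway partner of C4, rose by 1.11 ± 0.27, from 0.54 and 0.57 to 1.13 and 1.06, and Cd59a, which blocks the membrane attack complex, rose by 1.28 ± 0.18 (adjusted p = 0.0445 and 0.00781, edgeR). Itgb2, the shared chain of the complement receptors CR3 and CR4, rose by 0.73 ± 0.10 and Calr, a C1q-binding chaperone, by 0.43 ± 0.10 (adjusted p = 0.00583 and 0.0333, edgeR). C5ar2, the second C5a receptor, fell from 19.9 and 14.4 CPM in WT to 8.40 and 10.1 in KO (adjusted p = 0.036, edgeR). Vsig4, a C3b receptor of resident macrophages, stood at 4.84 and 1.77 in WT and at 0.13 and 0.30 in KO (adjusted p = 0.0352, edgeR).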

How the data were processed

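Single-cell 3′ RNA libraries (10x v3.1 kit, per the labels) were made from CD45 bead-enriched cells of MC38 tumours, 2 per genotype. The deposited values are raw UMI counts per gene and cell barcode, written by cellranger 5.0.0 per the file headers, on mm10. The submitters' processing notes name Cell Ranger 5.0.1 and Seurat 3.15, without the role of the latter. Depth per library is given with the results.

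Barcodes with under 200 genes, or with over 20% of their UMIs from mitochondrial genes, were dropped, which left 44184 of 47276. Cells were gated by counting markers with a UMI, and cells passing gates of more than 1 lineage were left out; no doublet caller was run. Gate numbers were set after the files were seen. Members and gene lists were chosen with earlier results of these data known. UMIs were summed per class and library, for classes with at least 20 cells in every library, and tested with edgeR 4.0.16 (quasi-likelihood, robust, TMM, filterByExpr) in R 4.3.3, Benjamini-Hochberg adjusted over all genes of a fit, threshold 0.05. A difference between classes was an interaction term with library as block. Named genes were all 9 members, members of the wider list with an adjusted p under 0.05 in macrophage-gated cells, and the 3 nearest genes by Pearson r over 32 sums among genes with a mean CPM of at least 10. A few items that these rules would name, and a check of the targeted gene, are not reported here. Loci came from GENCODE (22565 of 22620 identifiers found) and promoters from RefSeq. Counting was in Python 3.11.15 with numpy 2.4.6, pandas 2.3.3 and scipy 1.17.1. The fit was tested on simulated data. Alternatives were DESeq2 1.42.0, other scalings, filters and gates, a replicate block and leaving out each library. Intervals of shares are not given, since cells are not replicates.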

Additional observations from a re-analysis of the deposited data

Results flagged for a closer look

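For 11 results, the KO change in 1 set of cells differed from that in another by a test of the difference itself (edgeR interaction term, log2 scale). Every comparison covered the same 9 genes. Against macrophage-gated cells, the change in monocyte-macrophage-gated cells differed by -0.9353 for C4b and -0.6563 for C3 (1.53% of all genes passed). Each of these was lost with 1 library left out. In monocyte-gated cells it differed by -1.116 for C3 and -0.6093 for Cfp (3.21% of all genes). The Cfp difference held with each library left out and under total counts, and the C3 difference was lost under total counts. Against cDC- and neutrophil-gated cells none of the 9 passed (0.275% and 0.110% of all genes). Within macrophage-gated cells, Fcrls or Cx3cr1 positive minus negative cells gave -0.4843 for C1qa, -0.4830 for C1qb, -0.5265 for C1qc and -0.8663 for Cfb (3.81% of all genes). Each of these held with any library left out. Cxcl9 positive minus negative cells gave -0.6593 for Cfb, 0.2131 for C3ar1 and 0.2799 for C5ar1 (7.15% of all genes). Of these, Cfb held with each library left out, and C3ar1 and C5ar1 did not. The subset cuts use UMIs of genes whose own levels may differ between genotypes and libraries, and their part in these differences was not tested.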

How the results depend on the processing

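In macrophage-gated cells, 3 complement genes passed in the reported analysis, 6 with DESeq2, 5 with no filter on low counts and 6 in Fcrls or Cx3cr1 negative cells, and between 1 (without WT 1) and 7 (without WT 2) with 1 library left out. Genes called in all numbered 1170, and between 511 and 1968 with 1 library left out. Over the other gated classes 9 calls became 24 with no filter, and between 4 and 23 with 1 library left out. The 9 include C3 in the other T-gated cells, from which nothing is read. With no filter, calls among all genes rose too, in CD8 T-gated cells from 30 higher and 5 lower to 211 and 81. In cDC-gated cells they went from 10 and 1 to 94 and 29. Genes with few UMIs are then tested as well, so these counts show nothing particular to complement genes. Over all kept cells 3 became 6 with DESeq2, and between 0 and 4 with 1 library left out. The 31 calls in subsets became 20 to 39 with 1 library left out. The 2 genes whose change differed between macrophage-gated and monocyte- or cDC-gated cells became 1 under total counts, and 2 to 4 with 1 library left out. C4b in macrophage-gated cells ran from -1.02 without WT replicate 2 to 0.28 without WT replicate 1, and turned from -0.52 to 0.19 without Lyve1 or Cd163 positive cells; the cause was not tested. The labels give both genotypes replicate numbers 1 and 2 without saying that a number marks a shared source, and same-numbered libraries correlated at 0.044 in their deviations. With the replicate number as a block, 1 complement gene passed in macrophage-gated cells (Cfb) and 0 over all kept cells, and 876 genes passed in all. Leaving out a library leaves 1 in its arm, which is then assumed to vary like the other genotype's. Neutrophil-gated cells were too few for a test with gates on thinned cells or at least 1000 genes.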
